A study of Mus musculus with 3 samples.

Results

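The mitochondrial ribosomal proteins are the nuclear genes whose symbols begin with Mrpl or Mrps followed by a digit, and 75 of the 12880 genes listed in the deposited tables met that rule. The rule uses the symbol and no measured value, although the family was proposed with earlier results of these data known. By the current assignment of their proteins, 48 belong to the large subunit of the mitochondrial ribosome and 26 to the small subunit. The remaining gene, Mrps36, carries the family name but encodes a component of the alpha-ketoglutarate dehydrogenase complex. All 75 had reads in every library, and 73 had a mean of at least 100 normalized counts over the 3 libraries. Mrpl23 was not analysed here.

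The study sequenced RNA from macrophages of mouse lung at 0, 4 and 24 h in a model of acute lung injury, with 1 library per time point. The mice were LysM-GFP animals on the C57BL/6 background, aged 6-8 weeks, in which a green fluorescent protein reports the myeloid lysozyme locus. Injury came from a nebulized solution of LPS, the bacterial endotoxin, at 1 mg/ml. The same treatment text is given for every library, so whether the 0 h mice inhaled anything is not stated. Cells were sorted as GFP+, Ly6g- and CD64+, and how many mice gave each library is not stated.

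The mitochondrial ribosome translates the few messages of the mitochondrial genome, which encode core subunits of the respiratory chain and the ATP synthase. Its RNA comes from mitochondrial DNA, while its proteins are made in the cytosol and imported, so building one draws on both genomes. Some of its proteins descend from the bacterial ribosome, and others are found only in mitochondrial ribosomes. In macrophages, endotoxin is known to move energy metabolism away from respiration toward glycolysis.

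At 0, 4 and 24 h the libraries held 24825976, 20379236 and 25135476 reads assigned to genes. The 6 general macrophage markers (Csf1r, Adgre1, Cd68, Fcgr1, Mertk and Spi1) were all measured, and their normalized counts summed to 86274, 84429 and 73905 at 0, 4 and 24 h. The 10 alveolar macrophage markers summed to 723321, 277818 and 404904, the 8 classical monocyte markers to 103459, 449398 and 84806, and the 7 neutrophil markers measured of 10 to 3343, 23418 and 6774 in the same order. At 24 h against 0 h, 7 of the 8 monocyte markers were past 2-fold higher and 1 past 2-fold lower, against 4.95% and 9.1% of all genes. Their median log2 ratio was 1.71, although their sum was lower at 24 h than at 0 h. The 10 cell cycle markers summed to 12021, 6273 and 10075, lowest at 4 h. Of these 10, 8 were past 2-fold lower at 4 h against 0 h, against 14.3% of all genes, with a median log2 ratio of -2.52. Sums of the lists for dendritic (618, 3356 and 1219), epithelial (12501, 12464 and 12381), endothelial (686, 1320 and 942) and erythroid cells (51.4, 1130 and 1769) were small beside the macrophage lists, and those for T and NK, B and fibroblast cells were at most 251. Markers of macrophage subtypes, neutrophils and the cell cycle therefore moved with the time points that are compared here. So did some lists with small sums, such as the dendritic and erythroid ones. Sex-linked genes also differed between the libraries, since Xist had 13705, 4 and 1 reads and the Y-linked Ddx3y 4, 3994 and 2357. None of the 75 members lies on X or Y. Whether cell makeup or the sex of the mice plays a part in any difference given here was not tested, and with 1 library per time point they cannot be told apart from time. In bulk RNA, fewer cells of a type and less RNA per cell cannot be told apart either.

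With no replicate, no difference could be tested. Each ratio is of normalized counts, that is reads divided by a size factor per library, and its 95% interval is an exact one that covers counting error only. A member was called higher or lower past 1.5-fold, and on this scale the share of all genes past the same fold is given beside the count.

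The members took 0.197% of all reads at 0 h (exact 95% interval 0.195% to 0.199%), 0.151% at 4 h (0.149% to 0.153%) and 0.282% at 24 h (0.280% to 0.284%). Their summed normalized counts were 45704, 39048 and 58214. The family as a whole was thus lowest at 4 h and highest at 24 h on both scales. That order, 4 h below 0 h below 24 h, was shown by 55 of the 75 members (73.3%), against 21.6% of all 12481 genes listed in every library. The 4 h library held the lowest value for 59 members (78.7%, against 40.1% of all genes) and the 24 h library the highest for 65 (86.7%, against 31.2%).

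**Figure D1:**
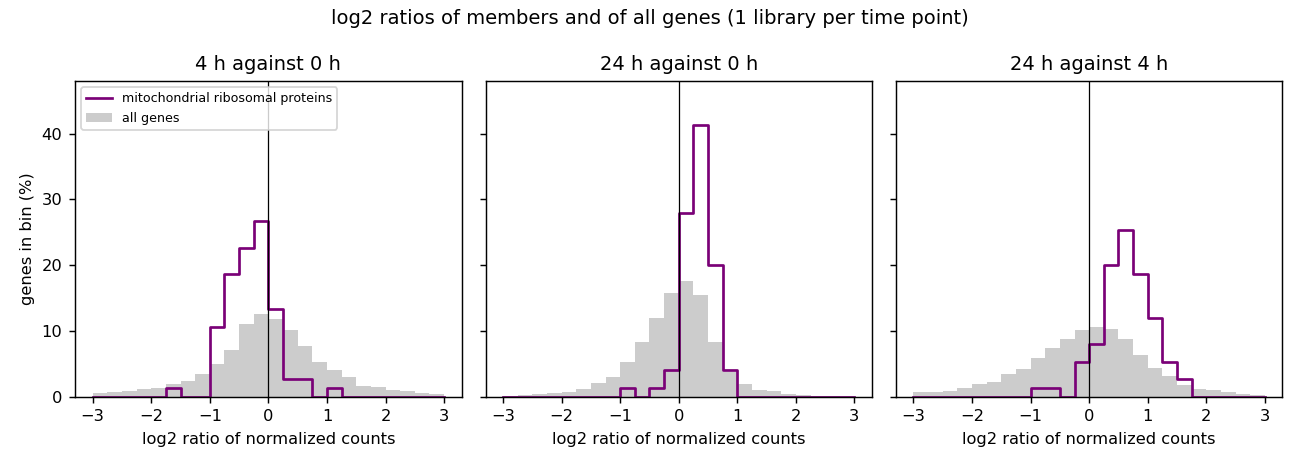
Share of genes (y axis, %) per bin of the log2 ratio of normalized counts (x axis) in each of the 3 comparisons. Grey bars are all genes and the purple line is the 75 mitochondrial ribosomal proteins, whose median was -0.31, 0.33 and 0.61 from left to right while the median of all genes stayed near 0. Genes beyond a log2 ratio of 3 in either direction are not drawn.

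In normalized counts per kilobase of coding sequence, the 73 members with a mean of at least 100 spanned 230 (Mrps27) to 6403 (Mrpl33) at 0 h with a median of 998. The range was 203 (Mrpl44) to 9253 (Mrpl33) at 4 h with a median of 774, and 212 (Mrps5) to 8593 (Mrpl33) at 24 h with a median of 1279. Mrpl33, a small bacterial-type protein of the large subunit, had the most counts per coding length in all 3 libraries. It was followed in the large subunit by Mrpl52 and Mrpl36, with means of 3687 and 3073 per kilobase. In the small subunit Mrps21, Mrps17 and Mrps14 led, with means of 2601, 2571 and 1942 per kilobase. The median per kilobase was higher for the large than for the small subunit by 1.32-fold at 0 h, 1.46-fold at 4 h and 1.17-fold at 24 h. Counts were divided by coding length alone, so any reads from untranslated parts raise short members most. Mrpl33, Mrpl52, Mrpl36, Mrps21, Mrps17 and Mrps14 have coding lengths of 261 to 384 bases, against a median of 594 over the members. How far this affects the ranking or the subunit medians was not tested. Apart from the stalk, each protein is present once in an assembled ribosome, whereas their messages by this measure spanned more than an order of magnitude.

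The first question was how the family stood 4 h after endotoxin. Of the 75 members, 60 were below their 0 h level, and the median log2 ratio was -0.31 against 0.00 for all genes. Past 1.5-fold, 18 members (24.0%) were lower, a share close to the 23.7% of all genes. Only 1 member (1.33%) was higher, against 25.4% of all genes. At 2-fold 1 member was lower and 1 higher, against 14.3% and 15.2% of all genes. The members were more tightly grouped than genes at large, with an interquartile range of log2 ratios of 0.52 against 1.13. It was 1.01 over genes with a mean of at least 100. Among lists read below it was narrower in some, such as nuclear oxidative phosphorylation genes (0.27) and cytosolic ribosomal proteins (0.32). In others it was wider, such as ribosome assembly and rRNA modification (0.75). By counting error alone, the interval of the ratio lay below 1 for 42 members, above 1 for 6 and on both sides of 1 for 27. Intervals were counted for the members only, here and in the later comparisons. Without a share of all genes beside them, these counts do not set the family apart.

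Mrps6 was the member furthest below its 0 h level. This bacterial-type protein of the small subunit had 658, 215 and 655 normalized counts at 0, 4 and 24 h. It was 3.07-fold lower at 4 h (95% interval 2.59 to 3.65) and back at its 0 h value at 24 h, when the ratio was 0.995 (0.898 to 1.10). Mrps6 shares exons on the same strand with Slc5a3, the myo-inositol transporter gene, which had 505, 246 and 312 reads. The value of Mrps6 is uncertain, because the way the counting divided reads between them is not given in the sources used here.

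Mrpl12, the stalk protein that brings translation factors to the ribosome, came next. It had 1084, 543 and 1279 normalized counts at 0, 4 and 24 h, and its ratio at 4 h was 0.501 (0.447 to 0.560). Mrpl51, found only in mitochondrial ribosomes, had 661, 338 and 831 and was 1.96-fold lower (1.70 to 2.26). Mrpl41, also of the large subunit, had 559, 292 and 647 and was 1.92-fold lower (1.64 to 2.24). Mrpl12, Mrpl51 and Mrpl41 shared 1 shape, a dip at 4 h and a 24 h level above the 0 h level. Their intervals overlapped, so their order among themselves is not resolved.

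Mrpl52 went the other way and was the sole member past 1.5-fold higher at 4 h. It is a large-subunit protein without a bacterial counterpart, and it had 818, 1683 and 1514 normalized counts at 0, 4 and 24 h. The ratio at 4 h was 2.06 (1.89 to 2.24). Mrpl39 had 543, 802 and 565 (ratio at 4 h 1.48, 1.32 to 1.66), which was a peak at 4 h alone. Mrpl33 had 2055, 2970 and 2759 (1.45, 1.36 to 1.53). Mrpl30 had 915, 1239 and 1150 (1.35, 1.24 to 1.48). Mrpl52, Mrpl33 and Mrpl30 stayed above their 0 h levels at 24 h, while Mrpl39 did not, with a ratio of 1.04 (0.930 to 1.16).

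**Figure D2:**
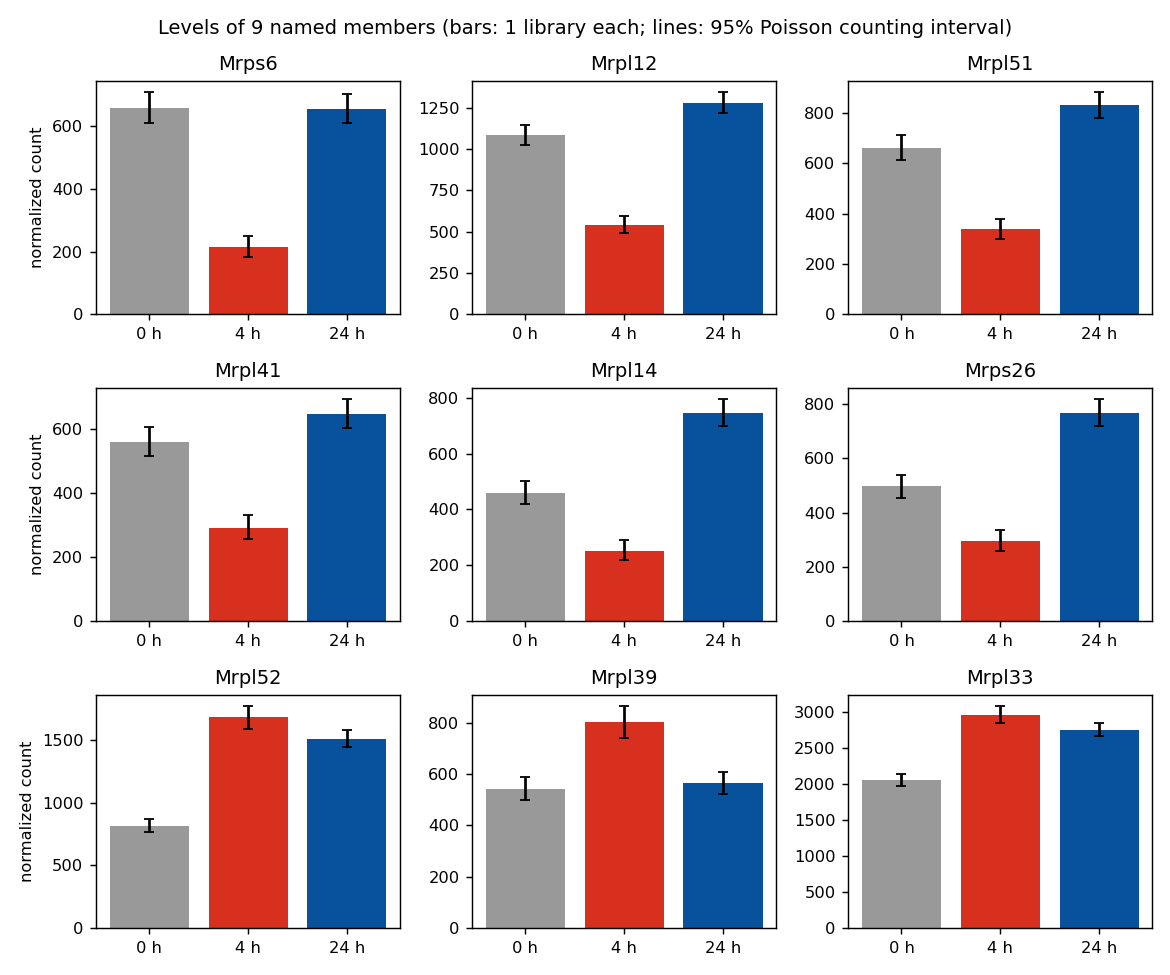
Normalized counts (y axis, separate scale per gene, starting at 0) of 9 named members at 0, 4 and 24 h, with 1 library per bar and exact 95% Poisson intervals that cover counting error only. Mrps6, Mrpl12, Mrpl51, Mrpl41, Mrpl14 and Mrps26 are lowest at 4 h, while Mrpl52, Mrpl39 and Mrpl33 are highest there.

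The next comparison set 24 h against 0 h. Here 70 of 75 members were above their 0 h level, with a median log2 ratio of 0.33 against 0.00 for all genes. Past 1.5-fold, 11 members (14.7%) were higher, near the 13.7% of all genes. A single member was lower (1.33%), against 19.2% of all genes, and that was Mrps36 with 15 reads at 0 h and 8 at 24 h and an interval that included 1. At 2-fold none was higher and only Mrps36 was lower, against 4.95% and 9.1% of all genes. The difference was thus small in size and shared by nearly all members, with an interquartile range of 0.29 against 0.79 for all genes. The counting interval, read for the members only, lay above 1 for 61 members, below 1 for 3 and across 1 for 11.

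Past 1.5-fold higher at 24 h against 0 h were 6 of the 48 large-subunit members (12.5%) and 5 of the 26 of the small subunit (19.2%). The share of all genes was 13.7%, and the difference between the subunits was not tested. Mrpl53, without a bacterial counterpart, had 227, 242 and 438 normalized counts at 0, 4 and 24 h, a ratio of 1.93 at 24 h (1.66 to 2.26). Mrpl52 followed with a ratio of 1.85 (1.71 to 2.01). Mrpl34, a bacterial-type protein, had 324, 230 and 590 (1.82, 1.60 to 2.08), and Mrpl28, likewise bacterial-type, had 613, 452 and 1007 (1.64, 1.49 to 1.81). Mrps24 of the small subunit, named after its value was seen, was level with Mrpl28 at 1.64 (1.49 to 1.81). Mrps24 overlaps exons of Urgcp on the same strand, whose reads were 852, 416 and 601. Mrpl53 shares an exon on the same strand with a gene model, Gm42688, so its reads may be divided. The lowest were Mrps5 with 333, 267 and 275, Mrpl38 with 838, 526 and 716, and Mrps2 with 627, 451 and 558. Those 3 were lower at 24 h by 1.21-fold (1.04 to 1.41), 1.17-fold (1.06 to 1.29) and 1.12-fold (1.01 to 1.25). With Mrps6, whose 0 h and 24 h levels differed by less than counting error, they were the 4 members with 4 h lowest and 0 h highest. For Mrps5 the 4 h and 24 h levels were not resolved, with a ratio of 24 h over 4 h of 1.03 (0.866 to 1.23).

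**Figure D3:**
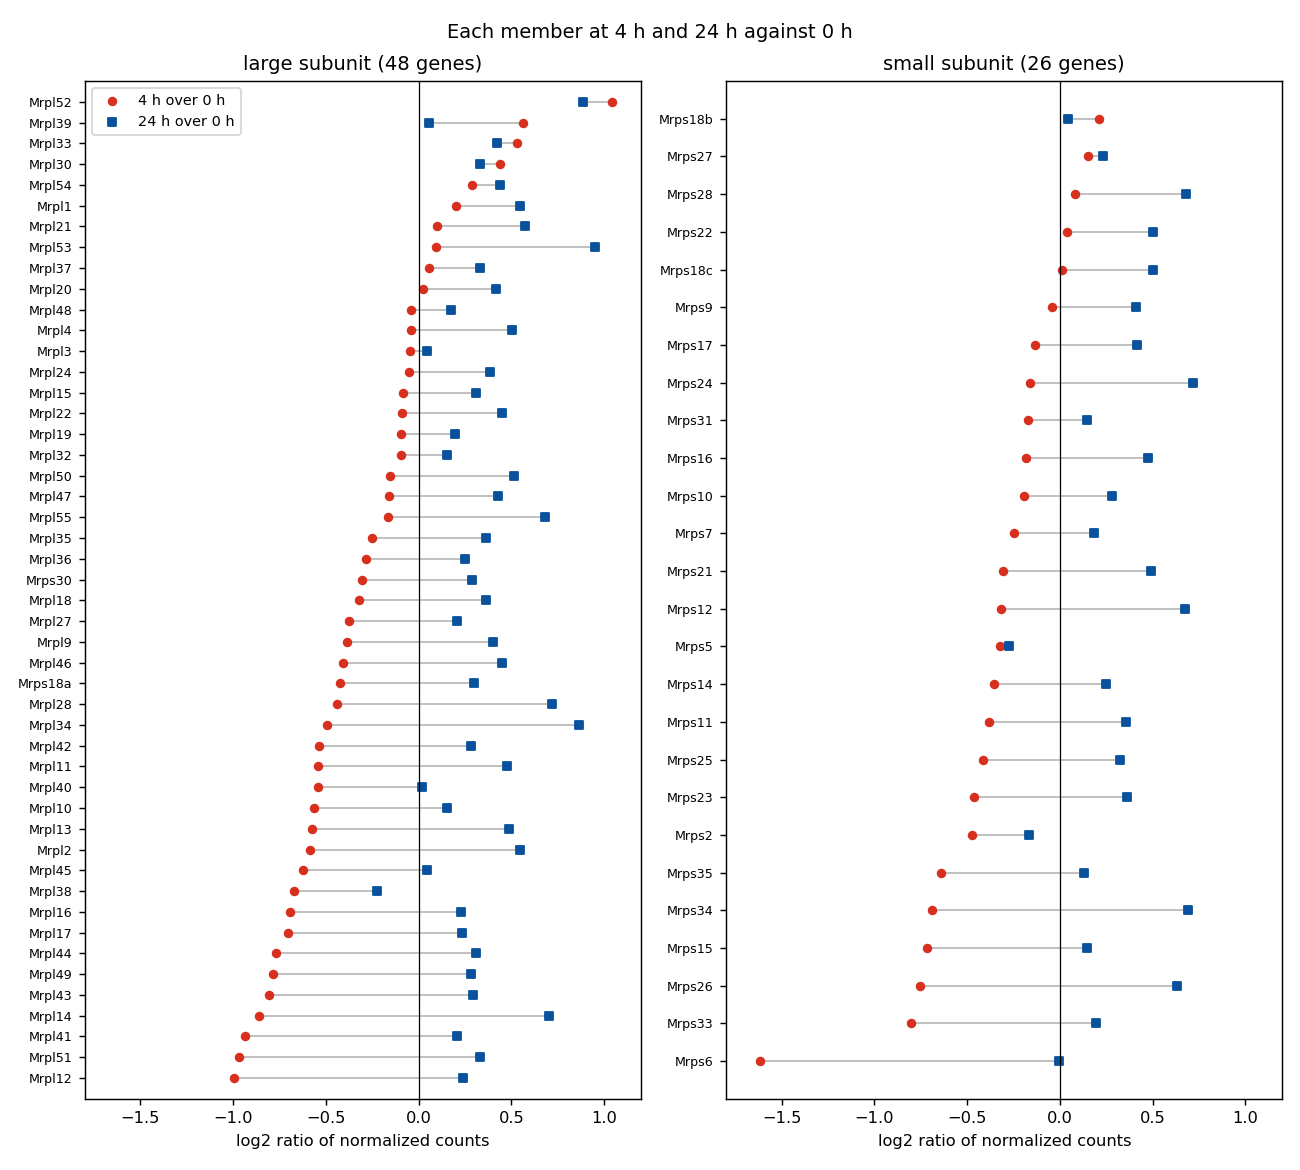
log2 ratio of normalized counts (x axis) of each large-subunit member (left, 48 genes) and small-subunit member (right, 26 genes) at 4 h over 0 h (red circles) and 24 h over 0 h (blue squares), ordered by the 4 h value. Most red circles lie left of 0 and most blue squares right of it, and Mrps6 has the lowest 4 h value.

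From 4 h to 24 h the members were higher as a group. The median log2 ratio was 0.61 against 0.00 for all genes, and 69 of 75 members were above their 4 h level. Past 1.5-fold 42 members (56.0%) were higher, against 26.2% of all genes, and only Mrps36 (10 and 8 reads) was lower, against 28.5%. Past 2-fold 15 were higher and none lower, against 14.4% and 17.9% of all genes. The counting interval, read for the members only, lay above 1 for 64 members, below 1 for 3 and across 1 for 8. The comparison shares its 4 h library with the first and its 24 h library with the second, so it is not separate evidence.

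Mrps6 had the largest ratio from 4 h to 24 h, 3.05 (2.58 to 3.63). Mrpl14, the counterpart of a bacterial protein at the face between the subunits, had 459, 253 and 745 normalized counts and a ratio of 2.95 (2.53 to 3.46). Mrps26 had 496, 294 and 768 (2.61, 2.25 to 3.02) and Mrps34 had 430, 267 and 694 (2.60, 2.23 to 3.04), both proteins found only in mitochondrial small subunits. Mrps34 overlaps exons of Nme3 on the same strand, whose reads were 285, 141 and 479. At the other end stood Mrpl39, 1.42-fold lower at 24 h than at 4 h (1.27 to 1.59), Mrpl52 at 1.11-fold lower (1.04 to 1.19), Mrps18b at 1.12-fold lower (0.943 to 1.34) and Mrpl30 at 1.08-fold lower (0.991 to 1.17). The intervals of Mrps18b and Mrpl30 included 1.

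The family was next read by the parts its proteins form. At 4 h against 0 h the median log2 ratio was -0.31 in the large and also -0.31 in the small subunit. It was 0.33 and 0.34 at 24 h over 0 h, then 0.64 and 0.63 from 4 h to 24 h. Neither subunit stood apart from the other by its median. Members with a bacterial counterpart had a median of -0.25 at 4 h against 0 h (45 genes) and those found only in mitochondria -0.42 (29 genes). At 1.5-fold 7 of the 45 (15.6%) and 11 of the 29 (37.9%) were lower at 4 h, against 23.7% of all genes. The difference between these classes was not tested.

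Next come the proteins of the factor-binding stalk and its base. Mrpl10, which carries Mrpl12, had 1108, 750 and 1233 normalized counts at 0, 4 and 24 h and was 1.48-fold lower at 4 h than at 0 h (1.34 to 1.63). Mrpl11, at the base of the stalk, had 697, 479 and 969 and was 1.46-fold lower (1.28 to 1.65). The intervals of Mrpl10 and Mrpl11 overlapped, and that of Mrpl12 lay lower than both. All 3 had the order of time points that 55 of the 75 members had.

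Another 5 members serve or surround the path of the new peptide or the core of the large subunit. Mrpl27, whose bacterial counterpart lies near the site of peptide bond formation, had 360, 277 and 416 normalized counts and a ratio of 0.770 at 4 h (0.649 to 0.911). Mrpl3, a core protein of the large subunit, had 875, 848 and 902, and each of its 3 intervals included 1. Mrpl22, which lines the exit tunnel, had 239, 225 and 326, a ratio of 0.940 at 4 h (0.772 to 1.14) and 1.36 at 24 h (1.16 to 1.60). Mrpl45, which holds the tunnel exit to the inner membrane, had 679, 441 and 699 and was 1.54-fold lower at 4 h (1.35 to 1.76). Mrpl44, a protein with the fold of an RNase III, had 346, 203 and 429 and was 1.70-fold lower at 4 h (1.41 to 2.06).

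In the small subunit Mrps12, the decoding-centre protein, had 408, 328 and 652 normalized counts at 0, 4 and 24 h and a ratio of 1.60 at 24 h against 0 h (1.42 to 1.80). Mrps7, in the head of the subunit, had 734, 618 and 832. Mrps27, a pentatricopeptide repeat protein, had 286, 317 and 335, with an interval at 4 h against 0 h that included 1 (0.936 to 1.32). Mrps30 and Mrps18a are numbered with the small subunit but sit in the large one. They had 640, 518 and 781 and 714, 532 and 879, a dip and a later excess like most of the large subunit. Both members under a mean of 100 normalized counts, Mrps33 and Mrps36, ranged from 6.57 to 117 over the 3 libraries.

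Mrpl46 and Mrps11 start on opposite strands of chromosome 7 with 41 bases between their starts (RefSeq starts 78783089 and 78783131, build GRCm38.p6), so one encodes a large-subunit and its neighbour a small-subunit protein from a common stretch. They are named for that position. Mrpl46 had 286, 216 and 390 normalized counts and Mrps11 had 307, 236 and 393. Their ratios were 0.755 (0.622 to 0.914) and 0.768 (0.639 to 0.923) at 4 h against 0 h, and 1.37 (1.18 to 1.58) and 1.28 (1.11 to 1.48) at 24 h against 0 h. The intervals of the pair overlapped in both comparisons. Annotated exons of the pair overlap each other on opposite strands, and without strand in the counting they may share reads.

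Promoter sequences were read because most members shared 1 order of the time points. RefSeq windows of 300 bases, from 250 before to 50 after the start of a gene, were at hand for 66 of the 75 members (72 windows, build GRCm38.p6). In the lines that follow, 5 stretches of 150 bases upstream are shown 5′ to 3′ on the strand of the gene, ended before the first annotated exon. They are of the 2 members furthest below 0 h at 4 h (Mrps6 and Mrpl12), the one furthest above (Mrpl52), and 2 examples, picked after the search, of members whose stretch holds 2 matches to the NRF1 motif (Mrpl45, and Mrpl9, where they overlap on opposite strands). Capitals mark a match to 1 of 4 short motifs, and in these stretches every match is to the core of the site of NRF1, a factor known for driving nuclear genes of mitochondria.
Mrps6 (chr16:92058120-92058269, plus strand): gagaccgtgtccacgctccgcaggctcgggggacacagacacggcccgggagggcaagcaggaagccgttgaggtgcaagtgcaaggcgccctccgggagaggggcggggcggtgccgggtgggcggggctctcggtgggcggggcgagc
Mrpl12 (chr11:120484463-120484612, plus strand): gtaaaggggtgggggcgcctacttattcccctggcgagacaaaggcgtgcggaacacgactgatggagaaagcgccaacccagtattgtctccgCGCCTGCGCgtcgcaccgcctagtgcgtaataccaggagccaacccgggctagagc
Mrpl52 (chr14:54426759-54426908, plus strand): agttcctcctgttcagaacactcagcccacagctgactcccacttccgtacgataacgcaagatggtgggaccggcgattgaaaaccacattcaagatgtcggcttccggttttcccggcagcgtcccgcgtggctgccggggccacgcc
Mrpl45 (chr11:97315566-97315715, plus strand): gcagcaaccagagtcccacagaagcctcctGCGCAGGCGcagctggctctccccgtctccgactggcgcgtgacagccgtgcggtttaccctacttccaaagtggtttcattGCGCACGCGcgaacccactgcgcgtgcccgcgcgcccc
Mrpl9 (chr3:94443168-94443317, plus strand): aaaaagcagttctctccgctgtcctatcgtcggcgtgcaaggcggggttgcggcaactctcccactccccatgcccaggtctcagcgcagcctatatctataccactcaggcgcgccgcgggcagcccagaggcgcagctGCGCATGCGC

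The NRF1 core (GCGCANGCG, searched on both strands) was in 15 of the 72 member windows (20.8%), against 6.25% of all 32851 windows and 12.6% of the windows of genes in the deposited tables. The ETS core CCGGAAGT, bound by the GABP factor among others, was in 12 (16.7%, against 3.89% and 7.65%). The YY1 core AANATGGCG was in 10 (13.9%, against 2.38% and 4.76%). The E-box CACGTG, bound by Myc with Max, was in 7 (9.72%, against 7.15% and 9.85%). These 7 windows belong to 5 members, since Mrpl2 has several overlapping windows. Counted by windows, the shares of the first 3 motifs were above, and that of the E-box about equal to, those of genes with reads in these cells. Median GC content was 58.2% in the member windows and 60.3% in those of genes with reads. At 4 h against 0 h the median log2 ratio was -0.38 in the 15 members with an NRF1 core and -0.30 in the 51 without. It was -0.29 with a YY1 core (10 genes) and -0.32 without. In the 12 members with an ETS core it was -0.04, against -0.32 without, and in the 5 with an E-box 0.01, also against -0.32 without. These groups are small and the differences between them were not tested. A match is a description of letters and not of binding. None of the 4 motifs was found in the stretches shown for Mrps6 and Mrpl52, and the whole Mrpl52 window holds an ETS core outside its stretch.

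The factors that read such motifs, or assist them, were measured in the same libraries. At 0, 4 and 24 h, Nrf1 had 824, 1013 and 669 normalized counts. The GABP subunit Gabpa had 1125, 1901 and 1302, Gabpb1 516, 778 and 449, and Gabpb2 2664, 4627 and 1874. Yy1 had 1206, 1742 and 1394, and Max 1559, 2240 and 1950. These 6 genes were each highest at 4 h. Among all genes, 18.6% had the order 0 h below 24 h below 4 h. Another 21.8% had the order 24 h below 0 h below 4 h. Pprc1, a coactivator of the PGC-1 family, had 1356, 1781 and 712. Its relative Ppargc1b had 336, 85.0 and 145, a 3.95-fold lower level at 4 h than at 0 h (3.04 to 5.21). The nuclear receptor Esrra had 1186, 929 and 1503. Myc had 932, 286 and 577 and was 3.26-fold lower at 4 h (2.82 to 3.79). Ppargc1b, Esrra and Myc were lowest at 4 h, as were 59 of the 75 members and 40.1% of all genes. Neither Ppargc1b nor Myc exceeded its 0 h level at 24 h, while Esrra did. Whether any of these factors plays a part in the course of the members was not tested.

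Genes that act with the mitochondrial ribosome were read from lists of known function. The 7 subunits that carry other symbols (Dap3, Ptcd3, Chchd1, Aurkaip1, Gadd45gip1, Mrp63 and Ict1) had medians of -0.08 at 4 h and 0.33 at 24 h against 0 h. All 7 ratios were below 1 at 4 h, but the counting intervals of Chchd1, Ptcd3, Mrp63 and Ict1 included 1. At 24 h all were above 1, and the interval of Ptcd3 included 1. Aurkaip1, the most abundant, had 1630, 1051 and 2044 normalized counts, and Gadd45gip1 had 379, 237 and 560. Of 26 genes of ribosome assembly and rRNA modification, 10 (38.5%) were past 1.5-fold lower and 4 (15.4%) higher at 4 h, against 23.7% and 25.4% of all genes, with a median of -0.39. Rpusd3, a pseudouridine synthase, had 202, 31.7 and 232, a ratio of 0.157 at 4 h (0.0996 to 0.239). Mterfd1 had 528, 1015 and 837 and was 1.92-fold higher at 4 h (1.73 to 2.15). Dhx30, an RNA helicase and the most abundant of them, had 1247, 1216 and 1026.

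Among 14 mitochondrial translation factors 1 (7.14%) was past 1.5-fold lower at 4 h and none higher, against 23.7% and 25.4% of all genes. That was the initiation factor Mtif3, with 261, 118 and 250 normalized counts, whereas the initiation factor Mtif2 had 572, 825 and 678. Tufm, the elongation factor that delivers tRNA, had 128, 91.4 and 251 and was 1.96-fold higher at 24 h than at 0 h (1.60 to 2.41). Of 19 mitochondrial aminoacyl-tRNA synthetases, 2 (10.5%) were higher and 6 (31.6%) lower past 1.5-fold at 4 h, against 25.4% and 23.7% of all genes, with a median of -0.19. Lars2, the most abundant of them, had 1644, 4360 and 1863. The 14 genes of mitochondrial DNA replication, transcription and RNA processing had medians of -0.08 at 4 h and 0.25 at 24 h against 0 h. Among them Pnpt1, a ribonuclease also known as interferon-induced, had 1123, 2798 and 1457, and Peo1, the helicase of mitochondrial DNA, had 198, 93.9 and 256. At 4 h, 4 of the 14 translation factors, 7 of the 19 synthetases and 15 of the 75 members were above their 0 h level. Over all genes this held for 6272 of 12512. None of the 15 mitochondrial-encoded genes listed was found in the tables, so their level is not analysed here.

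**Figure D4:**
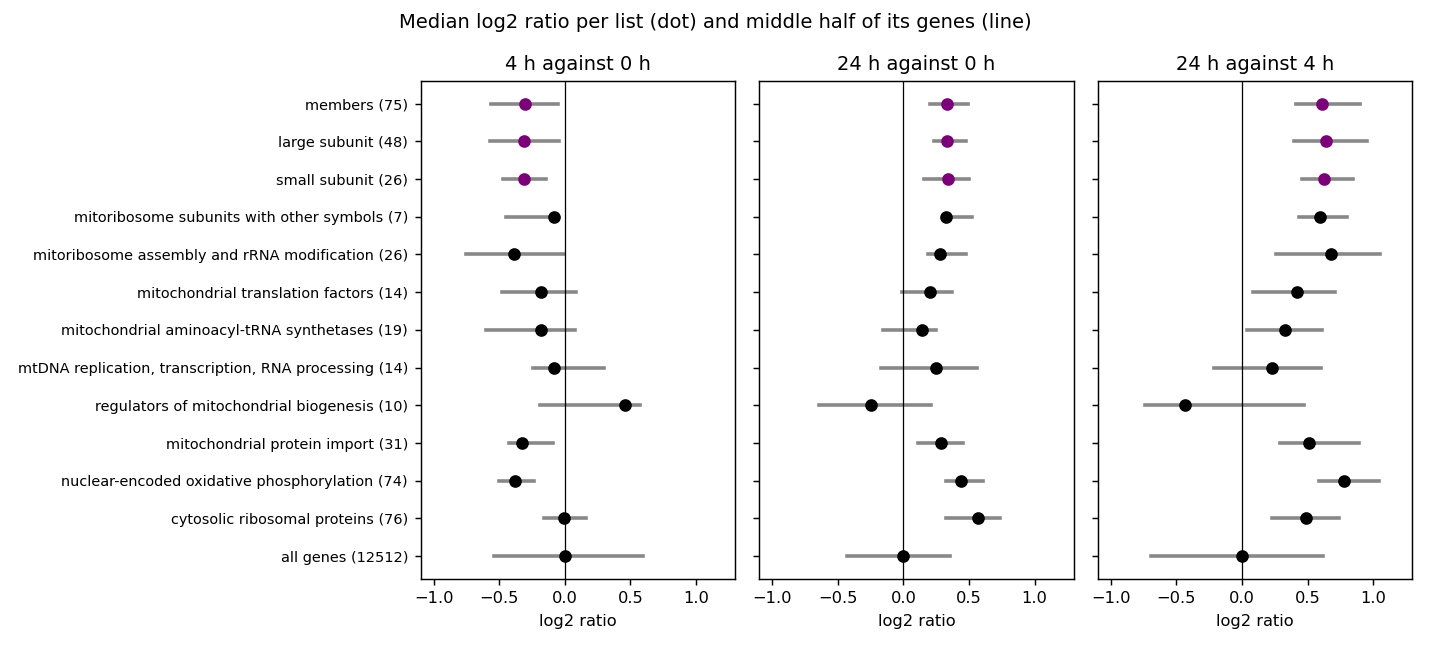
Median log2 ratio (dot, x axis) and interquartile range of the genes (line) of the mitochondrial ribosomal proteins, their subunits (purple) and related lists (black) in the 3 comparisons, with the number of genes at 4 h against 0 h in parentheses. The cytosolic ribosomal proteins sit at -0.01 at 4 h against 0 h, where the mitochondrial ribosomal proteins sit at -0.31.

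The respiratory chain and the cytosolic ribosome gave the nearest comparisons. The 74 nuclear genes of oxidative phosphorylation had medians of -0.38 at 4 h and 0.44 at 24 h against 0 h, with 65 of them (87.8%) in the order 4 h below 0 h below 24 h. Atp5b, the catalytic ATP synthase subunit and the most abundant, had 21189, 14199 and 20405 normalized counts. The 31 genes of mitochondrial protein import with values at all times had medians of -0.33 and 0.29. The 76 cytosolic ribosomal proteins with values at all times had a median of -0.01 at 4 h and 0.57 at 24 h against 0 h. Of these, 37 (48.7%) were lowest at 4 h, against 59 of 75 members (78.7%) and 40.1% of all genes, and 66 (86.8%) were highest at 24 h, against 65 of 75 (86.7%) and 31.2% of all genes. The difference between the mitochondrial and the cytosolic ribosome was not tested. On a scale centred on the cytosolic ribosomal proteins the members were lower at 24 h than at 0 h, with a median of -0.24 and with none higher and 4 lower past 1.5-fold, so the sign at 24 h depends on the reference. From 4 h to 24 h that scale left 12 members higher and 6 lower past 1.5-fold. The share of all genes past 1.5-fold was not counted on that scale. The median at 4 h against 0 h was -0.30 on that scale.

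The 5 genes outside the family closest to the members' median course, among 9831 compared by their pair of log2 ratios against 0 h over 3 libraries, were Zfpl1, Pde6d, Atp6v1g1, Zw10 and Pex6. Zfpl1 had 375, 303 and 470 normalized counts. With 3 libraries many genes take a like course.

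Coding length ranged from 261 bases (Mrps21) to 1326 (Mrps30). Across 74 members that form ribosomes, Spearman's rho between coding length and the log2 ratio was 0.10 for 4 h over 0 h, -0.33 for 24 h over 0 h and -0.33 for 24 h over 4 h. Shorter members thus tended to have larger ratios at 24 h, and whether read counting or RNA quality has a part in this was not tested. All these points share the same 3 libraries.

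Exons of 32 of the 75 members overlap those of another annotated gene, and for 23 the neighbour is protein-coding. Whether counting used strand is not given in the sources used here. Over the 43 members without such an overlap the medians were -0.25 for 4 h over 0 h, 0.33 for 24 h over 0 h and 0.60 for 24 h over 4 h. The order of the time points by the median was therefore as in the whole family.

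In the authors' deposited table of each comparison no member had a p-value below 0.05. Those p-values set 1 library against 1 with no replicate, and the share of all genes below 0.05 was not counted here. The lowest p-value among members in the authors' deposited table was 0.125 for 4 h over 0 h, 0.161 for 24 h over 0 h and 0.124 for 24 h over 4 h. The median log2 fold changes of the members in the authors' deposited table were -0.27, 0.26 and 0.52 in the same order.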

How the data were processed

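RNA sequencing of sorted lung macrophages gave 1 library each at 0, 4 and 24 h. The authors deposited 3 tables with a pair of libraries in each. The genome build was mm10 and DESeq2 was used (no version), per the submitters' processing notes. For the aligner, counter and annotation, names were not given in the sources used here. The deposited signal values are gene counts divided by a size factor of the table's pair of libraries, and the tables list genes above a mean of 10. Whole reads could be recovered from 100% of the signal values, within 0.001 reads for lower counts and a proportionally wider limit for higher ones. The deposited log2 fold changes and p-values are the authors' own, and the former are shrunken toward 0. The table of 24 h against 0 h heads its first signal column 4h, and that column was not used. Reads computed from its Base Mean matched the 0 h library in 12310 of 12310 genes listed for both. In all 7 columns of per-sample values were not used, the others being repeats of a library as a mean. That table had 20 repeated rows, which were dropped. Column headings add CD11b, a marker absent from the sorting protocol of the labels. Deposited starts count from 0 and were raised by 1.

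Reads were put on 1 scale with median-of-ratios size factors over 12451 genes (1.07 at 0 h, 0.788 at 4 h and 1.22 at 24 h). Medians use log2(normalized count + 1), and named ratios use no pseudocount. Intervals are Clopper-Pearson at 95%, from the reads of each pair of libraries, and hold counting error alone. No test was made, since there is 1 library per time point. The calculation was tested on simulated data. Coding lengths and exon overlaps come from GENCODE M21, and promoters from RefSeq (GRCm38.p6). Named genes are, per comparison, the 4 highest and the 4 lowest members with a mean of at least 100, the 3 most abundant per kilobase in each subunit, the members with a listed role, and from each related list the extremes, the most abundant gene or, for regulators, all measured. A gene that this rule names is not reported here. The members and all lists were chosen with earlier results of these data known. Alternatives were another scaling, a centring on cytosolic ribosomal proteins, the deposited fold changes, a fold of 2, a pseudocount of 5, a filter at a mean of 100 and other member sets. Python 3.11.15, numpy 2.4.6, pandas 2.3.3 and scipy 1.17.1 were used.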

Additional observations from a re-analysis of the deposited data

How the results depend on the processing

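Scaling to total reads shifted the median log2 ratio of all genes by -0.16 for 4 h over 0 h, 0.17 for 24 h over 0 h and 0.32 for 24 h over 4 h. Under it the members' median became -0.46 for 4 h over 0 h, with 27 lower past 1.5-fold in place of 18, and 0.50 at 24 h against 0 h, with 28 members past 1.5-fold (27 higher). From 4 h to 24 h it became 0.94, with 63 higher in place of 42. With that shift the ratios of Mrpl33, Mrpl52, Mrpl30 and Mrps18b from 4 h to 24 h turned positive, to log2 values of 0.22, 0.17, 0.22 and 0.16. Centring on the cytosolic ribosomal proteins reversed the median at 24 h against 0 h to -0.24, with 4 members past 1.5-fold (all lower), and left 0.13 from 4 h to 24 h, with 18 (12 higher and 6 lower). Either change of scale moves all genes together with the members. The share of all genes past 1.5-fold was not counted on either scale or for the deposited fold changes. The deposited log2 fold changes, shrunken by construction, put 12 members past 1.5-fold for 4 h over 0 h and 3 for 24 h over 0 h. A fold of 2 left 2, 1 and 15 members in the 3 comparisons. Of these, 1, 0 and 15 were higher, against 15.2%, 4.95% and 14.4% of all genes. The lower ones were 1, 1 and 0, against 14.3%, 9.1% and 17.9%. Leaving out members with an exon overlap, an alternative chosen after seeing the data, left 10, 7 and 23 of 43 past 1.5-fold. Of these, 1, 6 and 22 were higher, against 25.4%, 13.7% and 26.2% of all genes. The lower ones were 9, 1 and 1, against 23.7%, 19.2% and 28.5%. The median at 4 h against 0 h was negative under every alternative run. No paired analysis was possible because there is 1 library per time point and no test. Depth limits the members with few reads, above all Mrps36 with 8 to 15 reads per library.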
